A study of Mus musculus with 2 samples.

Results

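The genes described here build branched actin networks. They are 7 subunits of the Arp2/3 complex (Actr2, Actr3, Arpc1b, Arpc2, Arpc3, Arpc4 and Arpc5), 2 activators of that complex (Was and Wasf2) and the actin-binding coronin Coro1a. Members were taken by name and matched to probe sets that the platform annotation gives 1 gene symbol. Of the 10 genes, 8 had such a probe set, out of 19937 genes named in this way on the array. Actr2 and Arpc3 were not analysed here. All 8 measured members lay above the level filter used below.

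Expression was measured in Langerhans cells, the antigen-presenting cells of the epidermis, sorted for Langerin and Epcam. One group was Il34+/LacZ mice, which carry 1 working copy of Il34. The other was Il34LacZ/LacZ mice, which carry a LacZ cassette in both copies and so lack the CSF1 receptor ligand IL-34 throughout the body. All mice were 8 to 12 weeks old and received 30 min of ultraviolet light, and cells were taken 21 days later. Both groups thus carry a LacZ allele and ultraviolet exposure, and neither a wild-type nor an unexposed group was analysed here. RNA went straight from sorted cells in lysis buffer to a column for small samples, and 2 ng of total RNA was amplified and labelled with biotin. Each genotype is 1 array (n = 1), and the labels do not say whether its RNA came from 1 animal or several. No difference below has a replicate error or a test.

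Arp2/3 binds the side of an existing actin filament and starts a new filament there as a branch. It is nearly inactive alone and is switched on by proteins of the WASP family. WASP, encoded by Was in blood cells, responds to the GTPase Cdc42, and WAVE2, encoded by Wasf2, responds to Rac as part of a larger complex. Coronins bind branched filaments and Arp2/3 and help to turn the network over. In dendritic cells these proteins drive protrusion of dendrites, uptake of antigen, migration and contact with T cells. Loss of WASP causes Wiskott-Aldrich syndrome, an immune deficiency in which dendritic cell migration is impaired.

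The upstream sequences of 3 members are shown because those members mark the spread of the results below: Arpc2 and Was lay at opposite ends when compared with genes of their level, and Arpc4 was the Arp2/3 subunit with the largest difference between arrays. They are RefSeq reference sequence of build GRCm38.p6, 250 bases ending just before the annotated start, written 5′ to 3′ on the strand of the gene. Capitals mark CG dinucleotides. The Arpc2 window is chr1:74236267-74236516 (plus strand), the Arpc4 window chr6:113377863-113378112 (plus strand) and the Was window chrX:8090492-8090741 (minus strand).
Arpc2: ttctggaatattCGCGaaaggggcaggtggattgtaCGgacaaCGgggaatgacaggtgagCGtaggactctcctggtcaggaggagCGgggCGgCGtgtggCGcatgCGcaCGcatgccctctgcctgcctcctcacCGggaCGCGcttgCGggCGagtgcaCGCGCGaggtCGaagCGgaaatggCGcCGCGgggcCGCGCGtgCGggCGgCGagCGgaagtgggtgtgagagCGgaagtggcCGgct
Arpc4: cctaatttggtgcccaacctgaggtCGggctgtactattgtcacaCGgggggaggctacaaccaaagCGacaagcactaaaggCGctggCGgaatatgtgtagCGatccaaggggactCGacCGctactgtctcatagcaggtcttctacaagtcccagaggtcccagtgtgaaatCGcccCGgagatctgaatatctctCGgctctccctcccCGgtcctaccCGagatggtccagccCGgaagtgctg
Was: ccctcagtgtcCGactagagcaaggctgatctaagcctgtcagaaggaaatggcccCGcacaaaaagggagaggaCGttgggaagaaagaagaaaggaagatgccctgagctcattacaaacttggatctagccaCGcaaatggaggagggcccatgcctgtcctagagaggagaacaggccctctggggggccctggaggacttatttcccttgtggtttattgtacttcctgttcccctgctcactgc

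The windows differ in CG content. Arpc2 held 33 CG dinucleotides, more than 96.0% of 32851 such windows of the mouse genome, whose median was 6. Arpc4 held 14 and Was 4. Among the members Was was the poorest, followed by the 2 annotated Coro1a windows with 8 and 13. The other 6 windows, Actr2 and Arpc3 included, held between 17 and 37. Short motifs were counted on both strands in the windows of all 10 members. The ETS core CCGGAAG was present for 4 genes (Actr2, Actr3, Arpc3 and Arpc4) and in 6.91% of all windows. In Arpc4 it begins 12 bases before the start. The related core GAGGAAG was present for 0 genes and in 10.6% of all windows, the GC box GGGCGG for 7 genes and in 32.7%, and CCAAT for 3 genes and in 33.9%. A CArG box, the sequence bound by serum response factor, was present for Arpc4 alone and in 1.47% of all windows. The first core and the GC box each contain a CG. These are matches of letters, and no binding or methylation was measured.

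The values are deposited intensities of 1 probe set per gene, on a linear scale. Differences are Il34LacZ/LacZ minus Il34+/LacZ of log2(intensity + 16), and folds are on the same scale. A gene was used where its brighter array read at least 48.7, the middle value of the probe sets of the 2 arrays together, which left 12843 genes. The 2 arrays differed in shape: the median intensity was 45.2 for Il34+/LacZ against 51.9 for Il34LacZ/LacZ, and the 95th percentile 736 against 513. Bright genes therefore mostly read lower in Il34LacZ/LacZ, and 56.3% of all used genes did. For that reason each difference is also given as a level-adjusted difference, which is the difference minus the median difference of the 400 genes nearest in mean level. The only error within the data is the disagreement between probe sets of one gene. Its SD was 0.63 on the log2 scale over 614 genes, and 0.55 over the 181 genes whose probe sets were at least as bright as the dimmest member. It covers probe noise and isoforms, not animals, sorts or amplifications.

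All 8 measured members read lower in Il34LacZ/LacZ as deposited, although Arpc1b and Arpc2 turned higher when the arrays were scaled to the same 75th percentile, and Actr3, Arpc1b and Arpc2 did when they were quantile normalized. At least 1.5-fold lower were 4 of 8 members (Arpc4, Was, Coro1a and Wasf2), against 28.2% of all used genes, and at least 1.5-fold higher were 0 of 8, against 9.36%. The members are bright genes, and among the 400 genes nearest in level to each of them the share that read lower by 1.5-fold or more ran from 42.8% to 54.5%. The median difference of the members was -0.57, beside -0.16 over all used genes. After level adjustment the median of the members was 0.01, also 0.01 over all used genes. None of the 8 was then 1.5-fold lower or higher, where 18.1% and 13.8% of all used genes were. Level-adjusted, 4 members were above 0 and 4 below, and 8 of 8 lay closer to their level than 1 SD of the genes of that level. With this design, no member was set apart from genes of its level.

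**Figure D1:**
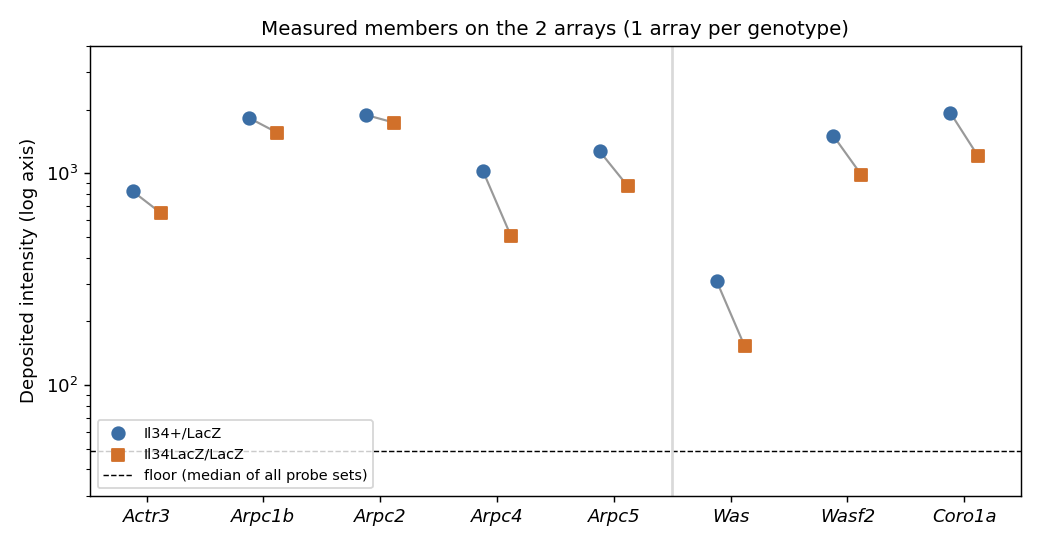
Deposited intensity (log axis) of the 8 measured members on the Il34+/LacZ array (circles) and the Il34LacZ/LacZ array (squares), 1 array per genotype, so no error bars are possible. The dashed line is the floor of 48.7. As deposited every square sits below its circle, by little for Arpc2 and by most for Arpc4 and Was, but the order turned for Actr3, Arpc1b and Arpc2 with quantile normalization, and for Arpc1b and Arpc2 with a common 75th percentile.

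The actin-related subunits form the start of the new filament. Actr3 (probe set 10357332), which encodes Arp3, read 824 with Il34+/LacZ and 651 with Il34LacZ/LacZ cells, the order used for all genes below. The fold was 1.26, a difference of -0.33. Genes of its level had a median difference of -0.65, so its level-adjusted difference was 0.31, and it lay above 72.5% of those genes. The SD of differences at that level was 0.56. Arp3 was thus lower between the arrays by less than a typical gene of its brightness.

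Arpc2 and Arpc4 make up the core on which the complex is assembled and by which it grips the mother filament. Arpc2 (probe set 10347297) read 1887 and 1736, 1.09-fold lower (difference -0.12). This was the smallest difference of the 8 members. Its level-adjusted difference of 0.39 was the highest among them, above 83.5% of genes of its level. Arpc4 (probe set 10540650) read 1025 and 505, 2.00-fold lower (difference -1.0). This was the largest difference of the 8. Its level-adjusted difference was -0.35, above 21.0% of genes of its level, whose median was -0.65.

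The 2 core subunits therefore differed from each other more than any other pair of subunits. Arpc4 minus Arpc2 was -0.88 in the difference and -0.74 after level adjustment. An SD for such a gap, from probe set disagreement of genes this bright, is 0.77. Of the 10 gaps between the 5 measured subunits, 1 was past that SD as deposited and 0 after level adjustment. The gap of -0.88 is the largest of 10, and each of these subunits rests on a single probe set. Arpc4 minus Arpc1b was -0.77, Arpc4 minus Actr3 -0.67 and Arpc4 minus Arpc5 -0.46. With the pseudocount or the scaling changed, Arpc4 minus Arpc2 ran from -0.90 to -0.82. The other alternative settings cannot change this gap as deposited.

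Arpc1b and Arpc5 are the subunits that mammals hold in alternative forms. Arpc1b, the form prominent in blood cells, whose loss in people gives an immune and platelet disorder, had 2 probe sets. The brighter (10604763) read 1824 and 1555, 1.17-fold lower (difference -0.23), and the other (10527441) read 1604 and 1237 (difference -0.37). They differed by 0.14, well under the SD of 0.55 for genes of this brightness. The level-adjusted difference of the brighter was 0.28, above 77.3% of genes of its level. Arpc5 (probe set 10350684), which joins the complex beside Arpc1b, read 1269 and 869, 1.45-fold lower (difference -0.54). At a level-adjusted 0.06 it was near the middle of its level, above 54.8% of those genes.

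Was (probe set 10603440) encodes WASP, the Arp2/3 activator of blood cells. It read 310 and 153, 1.93-fold lower (difference -0.95). It was the dimmest member, brighter than 87.6% of all probe sets with Il34+/LacZ cells and 81.2% with the others. Genes of its level had a median difference of -0.49 with an SD of 0.68, the widest for any member. Its level-adjusted difference of -0.46 was the lowest of the 8, above 21.8% of genes of its level. It reached -0.69, past 1.5-fold, where level was matched on the Il34LacZ/LacZ array alone, and was -0.28 where it was matched on the Il34+/LacZ array alone. In the first of these settings 21.6% of all used genes were lower by 1.5-fold or more.

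Wasf2 (probe set 10508805) encodes WAVE2, which drives sheet-like protrusions. It read 1503 and 983, 1.52-fold lower (difference -0.61), just past the fold used here. Its level-adjusted difference was -0.05, above 47.8% of genes of its level. Coro1a (probe set 10568024) encodes coronin 1A, the coronin of blood cells. It read 1938 and 1203, 1.60-fold lower (difference -0.68). Level-adjusted it was -0.16, above 36.8% of genes of its level. The 3 regulators were thus all below 0 after level adjustment, where 4 of 5 measured Arp2/3 subunits were above it. Wasf2 turned to 0.08 with level matched on the Il34+/LacZ array alone, and Arpc5 turned to -0.11 with level matched on the other array. The median was -0.16 for the 3 regulators and 0.28 for the 5 subunits. The split was seen after the values were known and was not tested.

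**Figure D2:**
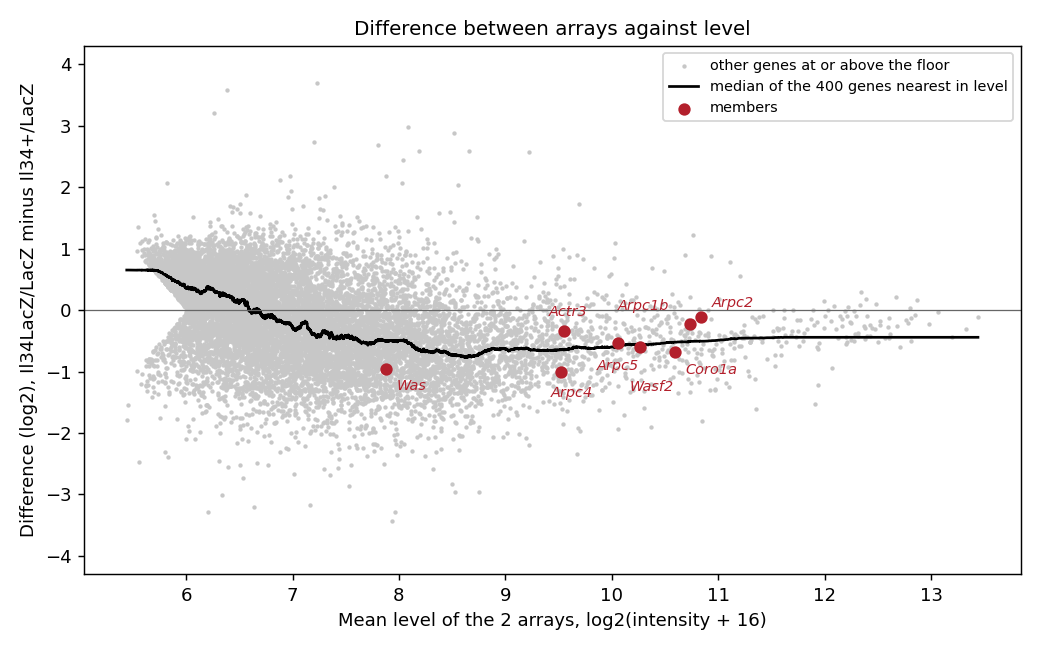
Difference between the arrays (log2, Il34LacZ/LacZ minus Il34+/LacZ, as deposited) against mean level for 12843 genes (grey), with the median of the 400 genes nearest in level (black line) and the 8 members (red). The line lies below 0 at the level of every member; Actr3, Arpc1b and Arpc2 sit above it, Arpc4, Was and Coro1a below it, and Arpc5 and Wasf2 on it. All 8 are below 0 as deposited, but 3 turned above 0 with quantile normalization and 2 with a common 75th percentile.

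Rank on each array, which no scaling changes and on which quantile normalization rests, was higher in Il34LacZ/LacZ for Arpc2, Arpc1b and Actr3. Arpc2 was brighter than 98.25% of probe sets in Il34+/LacZ and 98.70% in Il34LacZ/LacZ, and Arpc1b than 98.18% and 98.50%. Actr3 moved from 95.56% to 96.05%. The ranks of the other 5 members were lower in Il34LacZ/LacZ. Arpc4 moved from 96.52% to 94.89% and Was from 87.56% to 81.16%, while Arpc5, at 97.21% and 97.10%, hardly moved. Coro1a stood at 98.33% and 97.93% and Wasf2 at 97.71% and 97.47%.

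Members and other actin-pathway genes were each set beside a related gene, Coro1a beside both Coro1b and Coro1c. Both genes were above the floor in 10 of 15 such pairs, and the first gene, usually the one more prominent in leukocytes, had the lower difference in 6 and the higher in 4, as also after level adjustment. Arpc1a, the broad form of Arpc1b, read 315 and 185, 1.65-fold lower (difference -0.72, level-adjusted -0.23). Arpc1b minus Arpc1a was 0.49. Arpc5l, the second form of Arpc5, read 367 and 383 (difference 0.06). Genes of its level had a median of -0.76, so its level-adjusted difference was 0.82, past 1.5-fold. Arpc5 minus Arpc5l was -0.60 and -0.76 after level adjustment. The probe set SD of 0.63 is that of a single gene, and a gap carries the error of both genes. Of the 10 gaps as deposited, 8 were smaller than this SD, those of Arpc1b and Arpc5 among them. The rest, down to -0.85 for Hcls1 minus Cttn, are not shown to exceed the error of a gap. Actr3b, the remaining subunit on the list, was not analysed here.

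The broad WASP form Wasl, encoding N-WASP, read 153 and 95.4 (difference -0.60), and Was minus Wasl was -0.35 but -0.07 after level adjustment. Coro1b and Coro1c, broadly expressed coronins, differed by -0.56 and -0.61, close to the -0.68 of Coro1a. Wasf1, the neuronal WAVE form, was below the floor on both arrays at 30.0 and 44.9. Among pairs without a member, Rac2 and Rac1 differed by -0.54 and -0.55. Hcls1 and Cttn, which stabilise branches, differed by -0.44 and 0.41, but Cttn is dim at 61.7 and 87.3 and the gap was -0.09 after level adjustment. Nckap1l and Nckap1 of the WAVE complex differed by -0.77 and -1.11. The widest gap after level adjustment was that of the formins Fmnl1 and Diaph1 (level-adjusted -0.87 and 0.016, gap -0.89). Of the 5 pairs that could not be compared, Dock1 and Pls3 were below the floor beside Dock2 (difference -1.51) and Lcp1 (-0.55), as Wasf1 was. Cyfip1 and Arhgdia were not analysed here, beside Cyfip2 (-0.67) and Arhgdib (-0.52).

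**Figure D3:**
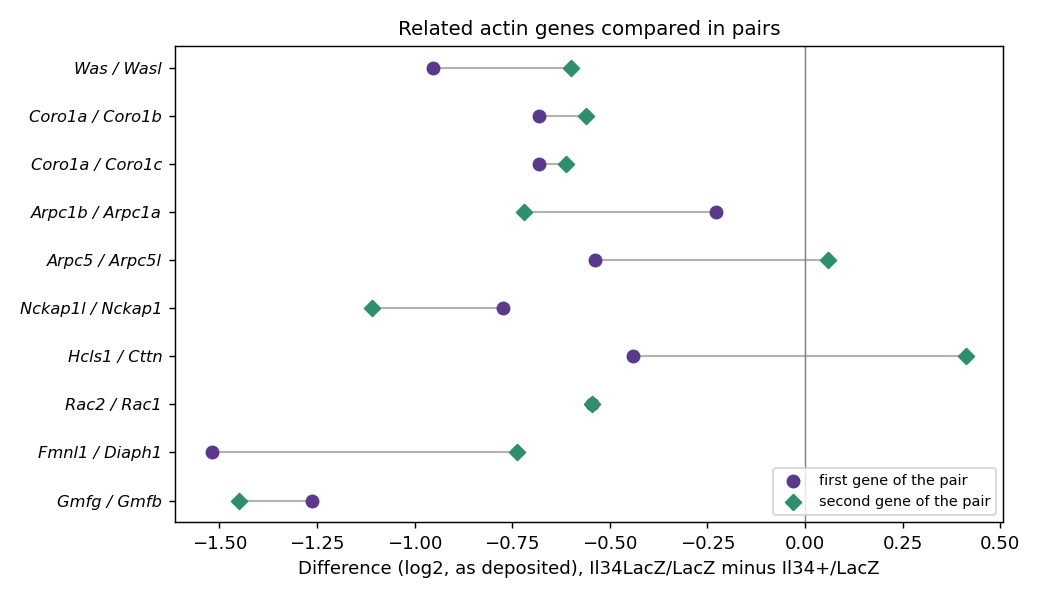
Difference between the arrays (log2, Il34LacZ/LacZ minus Il34+/LacZ, as deposited, 1 array per genotype) for the 10 pairs of related actin genes with both genes above the floor. Circles are the first gene of each pair and diamonds the second. Arpc1b lies above Arpc1a by 0.49, Arpc5 below Arpc5l by 0.60, and Rac2 and Rac1 coincide. Of the 10 gaps, 8 are smaller than the probe set SD of 0.63. That SD is for a single gene, and a gap carries the error of both genes.

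The other genes of the pathway were taken from 8 lists holding 86 genes, of which 77 were above the floor. At least 1.5-fold lower were 32 of 77 and higher 2, where 28.2% and 9.36% of all used genes were. After level adjustment the counts were 11 and 6, or 14.3% and 7.79% of the 77, no larger than the 18.1% and 13.8% of all used genes. The counts for single lists below, as deposited and level-adjusted, are to be read against the same 4 shares. The median difference of the 77 was -0.49 as deposited and 0.0026 after level adjustment, close to those of the members. Scaling moved the first counts: 44 were lower and 1 higher with each array centred on its median. They were 14 and 8 of 78 with a common 75th percentile, and 14 and 6 with quantile normalization. The level-adjusted median was 0.0061, -0.0043 and -0.016 in these settings. With each array centred on its median, 37.0% of all used genes were lower and 5.38% higher. The shares were 16.8% and 16.9% with a common 75th percentile, and 16.9% and 14.4% with quantile normalization. List counts below from rescaled arrays are to be read against these shares.

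WASP relatives and partners other than the members had the highest level-adjusted median of the 7 lists with more than 2 used genes. Of the 12 used, 1 was at least 1.5-fold lower and 1 higher, and after level adjustment 0 were lower and 4 higher, where 18.1% and 13.8% of all used genes were. As deposited the list's median was 0.25, and it ran from 0.07 with each array centred on its median to 0.61 with a common 75th percentile. In the latter setting 13 genes were used and 5 were higher, where 16.9% of all used genes were. The level-adjusted median of the 12 was 0.24. Wipf3, of the WIP family that holds WASP in a stable form, read 105 and 203 (level-adjusted 1.26). Whamm, an Arp2/3 activator of the Golgi and early secretory pathway, read 145 and 222 (level-adjusted 1.04). Trip10, a membrane-bending partner of WASP also known as CIP4, read 116 and 180 (level-adjusted 0.94), and Pstpip1, another such partner, 137 and 184 (level-adjusted 0.83). All 4 probe sets read at or below 222 on both arrays. The partners Wipf1 (1077 and 827) and Hcls1 (916 and 671) were at level-adjusted 0.23 and 0.16.

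The WAVE regulatory complex, which holds Wasf2 and releases it when Rac binds, read lower as deposited. Of 7 used genes, 6 passed 1.5-fold in that direction, against 28.2% of all used genes. With a common 75th percentile 2 did, against 16.8%, and with quantile normalization 1 did, against 16.9%. After level adjustment 0 were lower or higher, where 18.1% and 13.8% of all used genes were. The median was -0.68, or -0.22 level-adjusted. Nckap1, its broad scaffold, read 282 and 122, 2.16-fold lower (level-adjusted -0.58), and the adaptor Abi2 read 130 and 75.8, 1.60-fold lower (level-adjusted -0.49). The blood-cell scaffold Nckap1l read 1750 and 1018, 1.71-fold lower (level-adjusted -0.22).

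The WASH complex activates Arp2/3 on endosomes. Of 5 used genes 3 were at least 1.5-fold lower as deposited, against 28.2% of all used genes. With a common 75th percentile 1 was, against 16.8%, and after level adjustment 2 were, against 18.1%. Washc4 read 193 and 51.1, 3.12-fold lower, with a level-adjusted difference of -1.46, above 1.75% of genes of its level. Washc3 read 118 and 59.3, 1.77-fold lower (level-adjusted -0.81). The other 3 were Washc1, Washc2 and Washc5, level-adjusted 0.06, -0.31 and 0.58.

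Coronins and Arp2/3 inhibitors had 3 of 10 at least 1.5-fold lower and 1 higher, or 2 and 0 after level adjustment. All used genes had 28.2% and 9.36%, or 18.1% and 13.8%. The 2 lower by both measures were the glia maturation factors, which remove branches by binding Arp2/3. Gmfb read 536 and 186, 2.73-fold lower (level-adjusted -0.77). Gmfg, the form of blood cells, read 784 and 317, 2.40-fold lower (level-adjusted -0.63), and its second, dimmer probe set read 92.9 and 46.9 (difference -0.79). Pick1, an inhibitor of Arp2/3 that also sorts membrane proteins, read 54.0 and 93.9, 1.57-fold higher (level-adjusted 0.52). Coro2b read 49.8 and 49.0, at the floor (level-adjusted -0.39).

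Formins and Ena/VASP proteins lengthen unbranched filaments. As deposited 4 of the 9 used were at least 1.5-fold lower, and after level adjustment 3 were lower and 1 higher, where 18.1% and 13.8% of all used genes were. Fmnl1, the formin of blood cells, read 1221 and 416, 2.86-fold lower (level-adjusted -0.87, above 3.0% of its level). Diaph2 was 2.32-fold lower (192 and 73.5, level-adjusted -1.01) and Daam1 1.72-fold lower (105 and 54.1, level-adjusted -0.94). Evl, of the Ena/VASP family, read 310 and 371 (level-adjusted 0.97).

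Actin turnover genes were the largest list. Among the 19 used, 8 read at least 1.5-fold lower and 0 higher, or 4 and 0 after level adjustment. All used genes had 28.2% and 9.36%, or 18.1% and 13.8%. The level-adjusted median of the list was -0.00. Those 4 were Dbnl, which links actin to endocytosis (795 and 275, 2.78-fold lower), Cap1, which recharges actin monomers (2490 and 969, 2.55-fold lower), and the severing proteins Dstn (226 and 95.9, 2.16-fold lower) and Gsn (1135 and 444, 2.50-fold lower). Their level-adjusted differences were -0.84, -0.83, -0.72 and -0.68. Cfl1 and Pfn1, the main severing and monomer-binding proteins, were level-adjusted 0.16 and 0.07. Bundling and cross-linking genes had 6 of 13 at least 1.5-fold lower, against 28.2% of all used genes. With each array centred on its median 9 were, against 37.0%. With a common 75th percentile 2 were, against 16.8%, and with quantile normalization 1 was, against 16.9%. After level adjustment 0 were lower or higher. Among them the membrane linkers Rdx, Ezr and Msn were 2.05-fold, 2.02-fold and 1.74-fold lower (level-adjusted -0.51, -0.39 and -0.28), and Marcksl1 1.24-fold lower (level-adjusted 0.25).

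**Figure D4:**
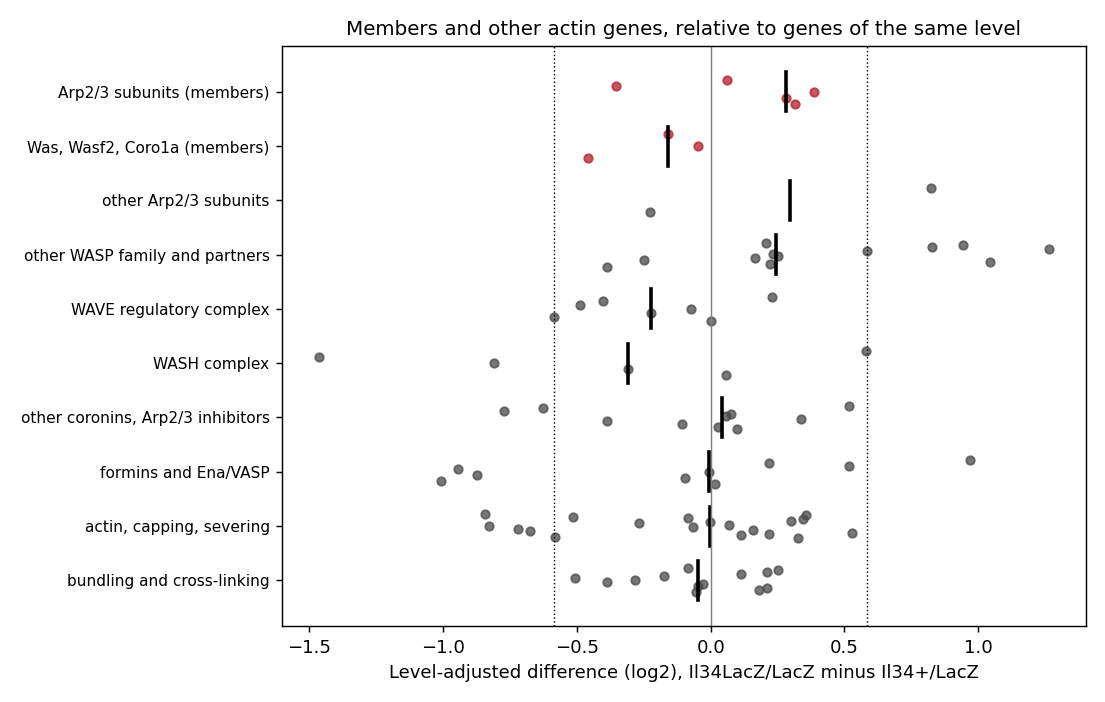
Level-adjusted difference (log2, Il34LacZ/LacZ minus Il34+/LacZ) of each gene above the floor, for the members (red, 2 rows) and the 8 lists of other actin genes (grey). Black bars are medians and dotted lines mark 1.5-fold. All 8 members lie between the dotted lines, from -0.46 for Was to 0.39 for Arpc2, and 17 of 77 other genes (22.1%) lie outside them, where 31.9% of all used genes do, down to -1.46 for Washc4 and up to 1.26 for Wipf3.

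Markers of the sorted cells and of other cells give the setting of these values. All 9 Langerhans cell markers were above the floor on both arrays, Cd207 at 3153 and 1852, Epcam at 633 and 708 and Ptprc at 1346 and 1078. Their summed intensity was 33241 and 27638. Of 10 keratinocyte markers 9 were lower in Il34LacZ/LacZ by 1.5-fold or more, 8 after level adjustment, with a summed intensity of 4848 against 794. Krt14 read 787 and 58.6 and Krt5 1188 and 138. The 8 macrophage markers summed to 1459 and 2907, and 7 of them passed the floor. They did not move together: Pf4 read 148 and 975, C1qa 256 and 599 and Mrc1 66.6 and 68.7. Adgre1 alone read lower, at 281 and 145. The 8 neutrophil markers summed to 319 and 1507. S100a8 and S100a9, the only 2 above the floor on both arrays, read 71.9 and 103 against 552 and 699. Ly6g, Mmp8 and Retnlg were below the floor on both, and Camp, Ngp and Csf3r passed it with Il34LacZ/LacZ cells alone. T cell markers were bright on both arrays: the 6 measured read from 245 to 2664 and from 162 to 2082. As deposited none was 1.5-fold apart, and the sums were 7300 and 6387. After level adjustment 5 of the 6 were above 0. Of these Cd3g, at 0.65, was 1.5-fold higher, where 13.8% of all used genes were. Was and Coro1a are expressed in T cells, macrophages and neutrophils too, and the Arp2/3 subunits in all these cells and in keratinocytes. The part of these cells in the members' values was not tested, and fewer cells of a type and less RNA per cell cannot be told apart in bulk RNA. The dermal dendritic cell markers summed to 1936 and 1332, led by Itgae at 1082 and 479. Cd8a went the other way at 411 and 507, and Xcr1 and Clec9a were below the floor. The sums for monocytes were 405 and 281, platelets 185 and 259 and fibroblasts 240 and 385. Those for endothelium were 231 and 320, melanocytes 199 and 339 and B cells 145 and 180. All of these 6 sums but that for platelets include genes below the floor. Dim probe sets generally read higher with Il34LacZ/LacZ cells (median intensity 45.2 against 51.9), and the sums are not level-adjusted.

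**Figure D5:**
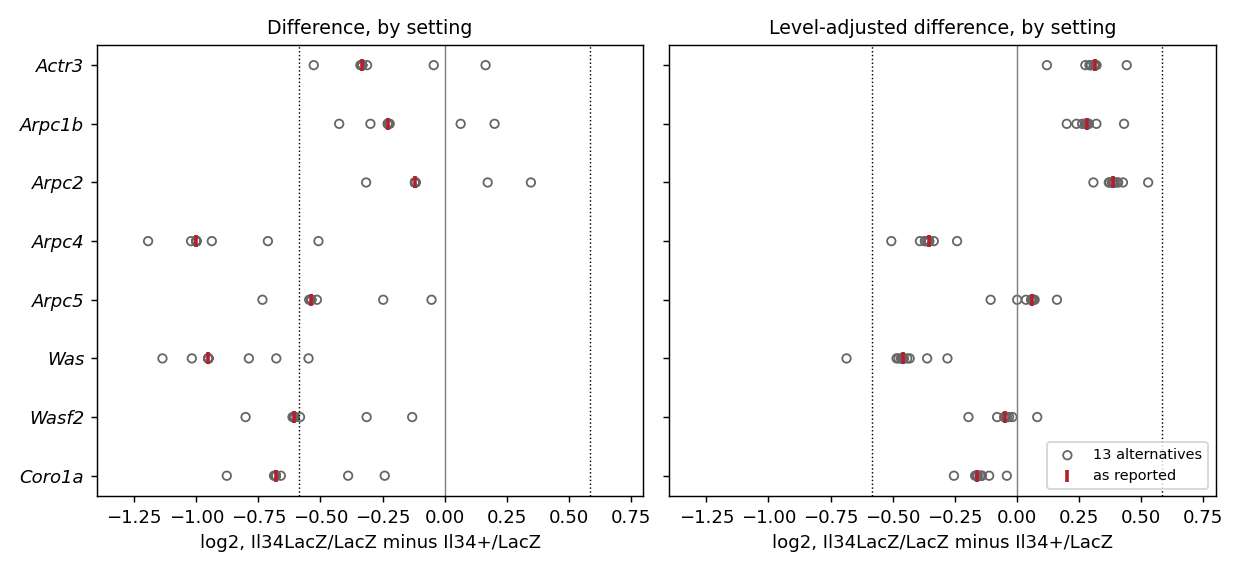
Differences (left) and level-adjusted differences (right) of the 8 members, log2, Il34LacZ/LacZ minus Il34+/LacZ, as reported (red bars) and in 13 alternative settings (open circles), with dotted lines at 1.5-fold. On the left, scaling moves all members together, and Actr3, Arpc1b and Arpc2 cross 0 in some settings. On the right Was is lowest and Arpc2 highest in every setting shown, and Arpc5 and Wasf2 each cross 0 in 1 setting. Only Was passes 1.5-fold, in 1 setting, where 21.6% of all used genes are lower by as much.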

How the data were processed

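The deposited table holds linear intensities, 1 value on each array for each of 34760 probe sets. How background was removed, probes summarised and the 2 arrays scaled is not given in the sources used here. Platform annotation gave 21640 probe sets 1 gene symbol, 1321 several and 11799 none, and only the first were named. Gene numbers of 21553 of these were found in RefSeq (GRCm38.p6). A gene was represented by its probe set with the highest mean. Intensities were log2-transformed after adding 16, and the level adjustment used the 400 nearest genes outside the members. Members and lists were chosen with earlier results of these data known. Besides the members and listed pairs, the 4 genes of each list with the largest level-adjusted difference were named (2 where under 8 were used), and others named were chosen after their values were seen. The steps were run on simulated data built from the level trend of these arrays with even noise. The level adjustment removes that same trend, so the run checks the code and not the adjustment on real arrays. With 1 array per genotype, no statistical test was possible, and the number of arrays limits the precision. Alternatives changed the pseudocount, floor, scaling, probe set rule and level matching. Python 3.11.15, numpy 2.4.6, pandas 2.3.3, statsmodels 0.14.6 and matplotlib 3.10.9 were used. A further list of genes is not reported here.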

Additional observations from a re-analysis of the deposited data

How the results depend on the processing

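Scaling moved the size of the members' differences. The median difference of the members, -0.57 as deposited, was -0.77 with each array centred on its median, -0.28 with a common 75th percentile and -0.092 with quantile normalization. The median over all used genes, -0.16 as deposited, was then -0.36, 0.16 and 0.03. The number of members at least 1.5-fold lower, 4 as deposited, was 2 with a common 75th percentile and 0 with quantile normalization, when 16.8% and 16.9% of all used genes were lower and 16.9% and 14.4% higher. After level adjustment 1 member, Was, was 1.5-fold lower with level matched on the Il34LacZ/LacZ array alone, where 0 were as reported. In that setting 21.6% of all used genes were lower by as much, against 18.1% as reported. The other 72 values of these counts and medians stayed within 1.5 times the reported count or, for medians, within a set bound. That bound was the probe set SD of 0.55 divided by the square root of the number of members. It treats the members as independent, which was not tested. Many of the 72 could not move, because the floor and the level matching do not enter the members' differences as deposited. No member value moved by more than the undivided probe set SD of 0.55, although Actr3, Arpc1b and Arpc2 changed sign with quantile normalization. Was was the lowest and Arpc2 the highest level-adjusted member in all 13 alternatives. No paired analysis was possible because each genotype has 1 array.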
